A study of Mus musculus with 3 samples.

Results

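Elaidate and oleate are fatty acids of the same chain length with a carbon-carbon double bond at the same position, and differ only in its geometry, which is trans in elaidate and cis in oleate. RAW264.7 cells, an established mouse macrophage line, were given 500 µM of either isomer for 6 hours, carried on serum albumin at a fatty acid to albumin ratio of 2 to 1, and 1 expression array was hybridised per fatty acid. This is 1 transformed line in culture, so animals or donors do not enter, and the labels do not say whether wells were pooled. A matching array of cells given palmitate, a saturated fatty acid, at the same dose and time is quoted beside the pair as a level only. No array of cells without added fatty acid was analysed here, so each value says how the isomers differed from each other and not how either acted. Of 18820 genes with a probe set of their own, those with a 3-array mean no lower than that of the middle gene (log2 4.14) were kept. This left 9410 genes to compare, without using the difference between the isomers. Foxo4 lay just inside the limit and Upp1 just outside, both with a difference of 0.

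With 1 array per fatty acid there is no spread between cultures, no p-value and no interval for any difference, and sizes are described only. All differences are elaidate minus oleate on the log2 scale, where 0.32 (the small limit), 0.58 (1.5-fold) and 1 (2-fold) serve as limits of size, and values are called equal when they lie within 1e-06 of each other. Levels are log2 values, given in the order oleate, elaidate, palmitate, and the levels of single genes are compared within a gene only.

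As background, a cell judges its own sterol supply through SREBP transcription factors, which sit in the endoplasmic reticulum membrane with the escort protein SCAP. The retention proteins INSIG1 and INSIG2 hold that complex in place while sterol is plentiful. When sterol in that membrane is low, SREBP travels to the Golgi, is cut free and switches on genes of cholesterol and unsaturated fatty acid synthesis. A separate arm, the integrated stress response, raises the transcription factor ATF4 and with it genes of amino acid supply. Macrophages also carry a type I interferon programme and a set of genes for engulfing dead cells, and gene families from each of these programmes are described below.

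The isomers gave similar arrays, and the differences that stood out leaned towards elaidate. Over the 9410 genes the standard deviation of the difference was 0.13, the median 0 and the mean 0.017. Higher values on the elaidate array were found for 31.5% of the genes, lower values for 24.3% and equal values for 44.1%. Within 0.1 of 0 lay 77.0%. Values were equal on all 3 arrays for 2592 genes. How such ties arose, in the cells or in the processing, was not tested. An equal value, or a list median of 0 that rests on equal members, is therefore not a measured lack of difference. At least 1.5-fold higher on elaidate were 68 genes (0.723%) and at least 1.5-fold lower were 6 (0.0638%). The 2-fold limit was passed by 10 genes upward (0.106%) and by 0 downward. The lean towards elaidate also held at the small limit of 0.32, with 251 genes higher (2.67%) and 84 lower (0.893%). The spread changed little with level, from a standard deviation of 0.108 among the 2354 genes with the lowest levels to 0.141 among the 2353 with the highest, while the share of equal genes was 63.8% in the former and 24.6% in the latter. In the plot of difference against level, some members of the coloured families lie outside the main band, mostly above 0. All 17 cholesterol synthesis genes passed the small limit upward, but only 10 of 33 interferon genes and 3 of 14 desaturases and elongases did.

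**Figure D1:**
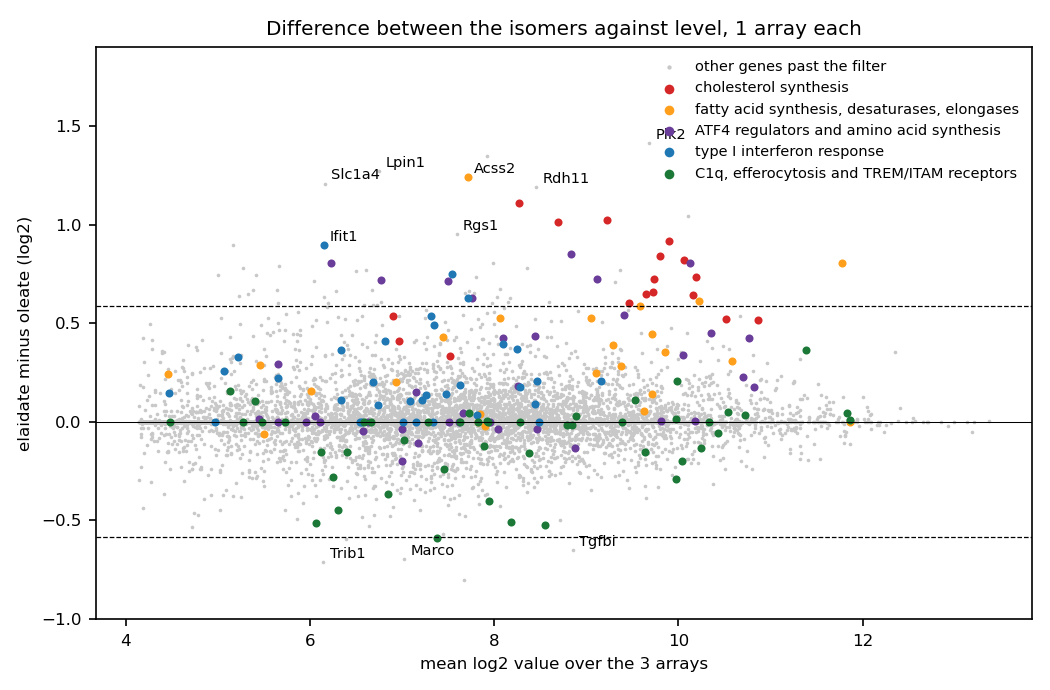
Elaidate minus oleate (log2, y axis) against the mean log2 value over the 3 arrays (x axis) for the 9410 genes past the filter, 1 point per gene and 1 array per fatty acid. Dashed lines mark 1.5-fold; 68 genes lie above the upper line, among them most cholesterol synthesis genes (red), and 6 lie below the lower one.

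Part of the upper tail falls into families. All lists were chosen with earlier results of these data known, so their counts describe these arrays and lend no separate support. Lists marked below as chosen after values were seen were added once these differences were known. Of the 68 genes, 19 belong to the sterol, fatty acid and triglyceride lists, with the prenyl branch and LXR lists among them. Another 8 belong to the lists of ATF4 regulators, amino acid transporters, amino acid synthesis and cytosolic tRNA synthetases, and 3 to the interferon list. Past the filter, the lists of the first group held 6 to 14 genes each, with some genes shared. Those of the second held 16 to 21 each, and the interferon list 33. Over all 9410 genes the share at 1.5-fold was 0.723%. The 6 lower genes were the kinase-like Trib1, the scavenger receptor gene Marco, the matrix gene Tgfbi, Soga1, the adaptor gene Dok3 and the small nucleolar RNA gene Snord118, whose difference of -0.80 was the lowest of all and which is named here after its value was seen. Macrophage markers checked the labelled cell type: Cd68 stood at a log2 level of 11.77 on all 3 arrays, and 19 of 21 measured markers passed the filter, the exceptions being Cd36 and Mrc1. Of the markers of other cells, 0 of 10 for T and B lymphocytes passed, 2 of 10 for fibroblasts, 1 of 9 for adipocytes and hepatocytes, 3 of 12 for dendritic cells and 5 of 12 for osteoclasts, a cell type that macrophages can form. Of those 5, Dcstamp was furthest from 0, at 0.52, and 2 were higher and 3 lower.

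Promoter windows of genes from the cholesterol synthesis, interferon and ATF4 families are shown first, since each is known for promoter elements of its own. They come from RefSeq (GRCm38.p6), read in the direction of the gene, and each ends at the base before the annotated start. The motifs searched on both strands over 300 bases around each start were the CCAAT box (CCAAT), the E-box (CACGTG), a sterol response element (TCACNCCAC), an interferon-stimulated response element (GAAA, any 2 bases, GAAA) and a CEBP-ATF response element (TGATGNAA). None of these patterns contains another. A match is a stretch of letters and not a measured site.

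The first set shows the sterol genes: Hmgcs1 at chr13:119690201-119690350 (plus strand), Lss at chr10:76531455-76531604 (plus strand), Nsdhl at chrX:72918371-72918520 (plus strand), Sc5d at chr9:42264301-42264450 (minus strand) and Insig1 at chr5:28071262-28071411 (plus strand). Capitals mark the sterol response element and then a CCAAT box on the opposite strand in Hmgcs1, CCAAT boxes on the opposite strand in Lss and Nsdhl, the E-box and then such a CCAAT box in Sc5d, and the E-box in Insig1.
Hmgcs1: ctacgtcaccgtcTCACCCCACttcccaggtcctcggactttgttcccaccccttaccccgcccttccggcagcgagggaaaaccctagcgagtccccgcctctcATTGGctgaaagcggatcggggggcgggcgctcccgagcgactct
Lss: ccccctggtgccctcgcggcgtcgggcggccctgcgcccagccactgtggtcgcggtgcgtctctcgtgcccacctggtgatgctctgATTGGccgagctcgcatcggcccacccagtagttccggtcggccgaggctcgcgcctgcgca
Nsdhl: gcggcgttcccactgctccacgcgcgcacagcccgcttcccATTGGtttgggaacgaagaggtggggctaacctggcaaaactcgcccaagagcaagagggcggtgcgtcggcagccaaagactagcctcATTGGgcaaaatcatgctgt
Sc5d: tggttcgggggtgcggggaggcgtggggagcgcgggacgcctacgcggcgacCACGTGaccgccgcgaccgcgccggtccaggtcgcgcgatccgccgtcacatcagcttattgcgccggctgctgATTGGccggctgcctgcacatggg
Insig1: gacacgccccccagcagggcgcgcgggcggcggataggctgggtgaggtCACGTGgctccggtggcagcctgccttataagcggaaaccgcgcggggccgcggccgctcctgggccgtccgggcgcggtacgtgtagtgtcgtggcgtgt

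The second set shows genes of the interferon and ATF4 families: Ifit1 at chr19:34640739-34640888 (plus strand), Rsad2 at chr12:26456453-26456602 (minus strand), Nupr1 at chr7:126625471-126625620 (minus strand) and Asns at chr6:7693210-7693359 (minus strand). Capitals mark the interferon-stimulated response element, read on the opposite strand, in Ifit1, with 2 matches, and in Rsad2, with 1, and the CEBP-ATF element in Nupr1, on the opposite strand, and in Asns.
Ifit1: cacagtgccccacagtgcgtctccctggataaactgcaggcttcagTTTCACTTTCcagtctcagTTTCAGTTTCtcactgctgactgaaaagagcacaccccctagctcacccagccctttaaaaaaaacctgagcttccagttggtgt
Rsad2: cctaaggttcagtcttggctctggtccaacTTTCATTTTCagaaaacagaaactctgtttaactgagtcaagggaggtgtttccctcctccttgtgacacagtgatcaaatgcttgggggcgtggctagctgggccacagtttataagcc
Nupr1: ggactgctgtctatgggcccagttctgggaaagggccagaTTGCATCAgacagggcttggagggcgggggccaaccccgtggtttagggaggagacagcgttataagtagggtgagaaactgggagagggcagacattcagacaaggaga
Asns: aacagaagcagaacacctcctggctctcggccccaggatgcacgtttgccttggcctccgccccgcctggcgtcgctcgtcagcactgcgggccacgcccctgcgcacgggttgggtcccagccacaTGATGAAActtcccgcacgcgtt

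Over the families, the CCAAT box occurred in 82.4% of the 17 windows of cholesterol synthesis enzymes, covering each of the 14 enzymes (of 17) that have a window, beside 37.4% of all 32851 mouse windows. The E-box was in 17.6% of the same windows against 7.15% of all, and the sterol response element in 1 of the 17, that of Hmgcs1, against 1.24% of all. In the 22 windows of fatty acid synthesis, desaturase and elongase genes, the CCAAT box was in 59.1%, the E-box in 18.2% and the sterol response element in 0. For the interferon genes, the interferon-stimulated response element was in 15 of 30 windows (50%), belonging to 14 of 24 genes with a window, against 3.44% of all. Of the 14 genes with it, 10 were higher on elaidate, among them Ifit1, Rsad2 and Cxcl10, and 4 were equal (Ifit3, Oas3, Bst2 and Gbp2). Of the 10 genes whose windows lack it, 8 were higher and 2 equal. For ATF4 regulators, amino acid synthesis genes and cytosolic tRNA synthetases together, the CEBP-ATF element was in 10 of 47 windows (21.3%) against 3.97% of all.

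All measured enzymes of cholesterol synthesis were higher on elaidate than on oleate. The family has 17 measured members and all 17 passed the filter; 17 were higher, each past the small limit of 0.32, and 12 by at least 1.5-fold. Their median difference was 0.66 (1.58-fold), beside a median of 0 over all genes, and ran from 0.33 to 1.11. Elaidate was the highest of the 3 arrays for each of the 17, which held for 14.8% of all genes. Palmitate therefore lay below elaidate at every measured step, as the plot of the pathway shows.

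From acetyl-CoA to farnesyl diphosphate, 6 enzymes were measured. Hmgcs1, which makes HMG-CoA, had log2 levels of 9.68, 10.34 and 9.14 and a difference of 0.66. Mevalonate is then phosphorylated by Mvk, at 6.89, 7.30 and 6.71, and by Pmvk, at 7.86, 8.97 and 7.99; their differences were 0.41 and 1.11. Pmvk thus held the largest difference of the pathway, and Mvk, the step before it, the smallest of this arm. Mvd, the decarboxylase, read 8.45, 9.46 and 8.16, a difference of 1.01. The isomerase gene Idi1 (9.61, 10.34 and 9.26) and the farnesyl diphosphate synthase gene Fdps (9.27, 9.87 and 9.27) differed by 0.73 and 0.60. In Fdps, oleate and palmitate lay at the same level to 2 decimals and elaidate alone was above them.

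From squalene on, all 11 measured enzymes were higher, with a median of 0.65. Fdft1, which makes squalene, read 9.93, 10.57 and 9.96, a difference of 0.64. Sqle, the epoxidase that starts ring formation, was at 10.40, 10.91 and 10.24 and differed by 0.52. Lss, which closes the sterol rings, read 8.84, 9.86 and 8.96 and differed by 1.03. Demethylation follows. Cyp51 had levels of 9.51, 10.42 and 9.75, a difference of 0.91, and the C4 demethylation genes Msmo1, Nsdhl and Hsd17b7 differed by 0.51, 0.82 and 0.73. Tm7sf2, a sterol reductase gene, differed by 0.54. At the end of the pathway Ebp, Sc5d and Dhcr7 differed by 0.33, 0.84 and 0.65, so the later steps included both the smallest difference, at the isomerase Ebp, and one of the larger ones, at the desaturase Sc5d.

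**Figure D2:**
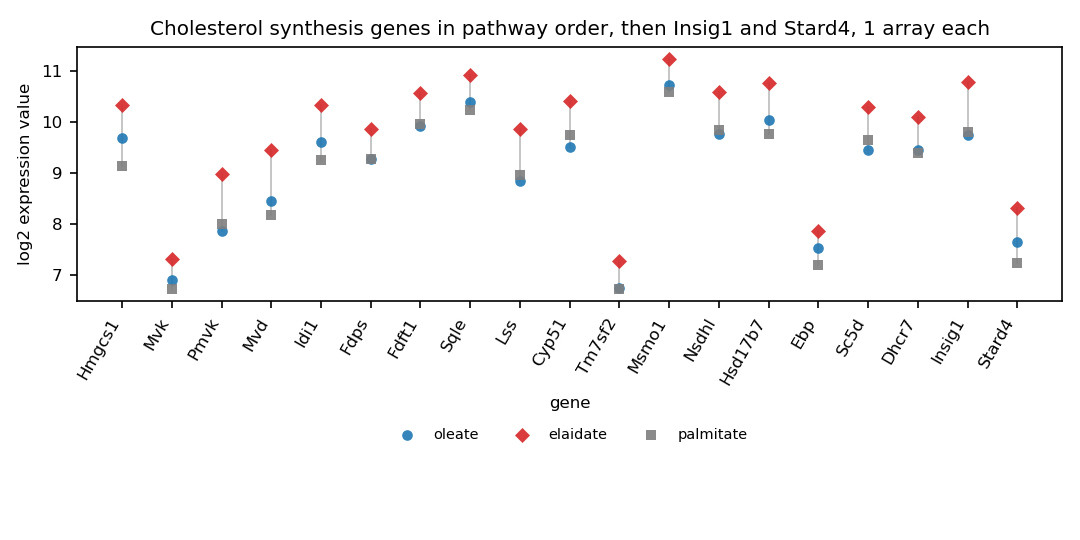
Log2 expression values (y axis) of the 17 measured cholesterol synthesis genes in pathway order, then Insig1 and Stard4 (x axis), on the oleate (blue circle), elaidate (red diamond) and palmitate (grey square) arrays, 1 array each. The elaidate point is the top one for every gene, by 0.33 (Ebp) to 1.11 (Pmvk) over oleate among the enzymes.

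The branch to other prenyl lipids had nearly level values, most of them ties whose origin was not tested. The list holds 13 genes of protein prenylation and its later steps, dolichol and ubiquinone, of which 11 were measured and all 11 passed the filter. Of these, 9 were equal on both arrays. The exceptions were small: the processing protease gene Zmpste24 at 0.02 and the geranylgeranyl transferase gene Pggt1b at -0.08. None passed the small limit.

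Genes that sense sterol were mixed. Of 9 measured members 4 were higher, 1 lower and 4 equal (median 0). Insig1, the retention protein and itself an SREBP target, read 9.74, 10.78 and 9.80, a difference of 1.04, while Insig2 differed by 0.20. Srebf2, which encodes SREBP2, differed by 0.06, and Srebf1, Scap, the protease gene Mbtps1 and the ligase gene Rnf139 were equal. Rnf145, a ubiquitin ligase that acts on HMG-CoA reductase and SCAP, read 8.07, 7.50 and 6.78, a difference of -0.57. Mylip, a ligase gene that acts on lipoprotein receptors, was at 0.16. Insig1 and Rnf145 therefore lay at opposite ends of the list.

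Sterol transport was higher for 8 of 11 members, 1 was lower and 2 were equal (median 0.12). Stard4, a soluble sterol carrier, read 7.64, 8.30 and 7.24, a difference of 0.66. The lipid transfer protein gene Osbpl8 followed at 0.38, and Npc1, which moves cholesterol out of lysosomes, stood at -0.03. LXR target genes, which respond to sterol excess, had 4 of 9 members higher, 1 lower and 4 equal (median 0, or 0.48 among members at or above the 75th percentile of level). The higher ones included Scd2 at 0.80 and Lpcat3 at 0.48, taken up with their own families. The efflux pump gene Abca1 read 5.14, 4.86 and 6.03, a difference of -0.28, and its relative Abcg1 6.87, 7.15 and 8.22, a difference of 0.27. These pumps thus pointed in opposite directions between the isomers, with palmitate above both isomers for each.

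Fatty acid synthesis genes shared the pattern at smaller size. Of 10 members past the filter (14 measured), 8 were higher, 0 lower and 2 equal (median 0.41), and elaidate was the highest of the 3 arrays for all 8. Acss2, which makes acetyl-CoA from acetate, read 7.24, 8.48 and 7.42 and differed by 1.24. Acly, which makes it from citrate, read 10.09, 10.70 and 9.89 and differed by 0.61, and the citrate carrier gene Slc25a1 differed by 0.39. The ketone-using Aacs stood at 0.53, the malic enzyme gene Me1, a source of NADPH, at 0.52, the carboxylase gene Acaca at 0.43 and the synthase gene Fasn at 0.35. The 2 equal members of the list differed less than the synthase gene Fasn, and the genes named before it here differed more, Slc25a1 by little. Beside them the cytosolic NADP-dependent dehydrogenase gene Idh1, from a list chosen after values were seen, read 9.20, 9.77 and 9.39, a difference of 0.56.

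Desaturases and elongases were higher for 12 of 14 members past the filter and lower for 2, with a median of 0.22. Scd2, a delta-9 desaturase that makes oleate from its saturated precursor, read 11.40, 12.20 and 11.72, a difference of 0.80. Fads2, which opens polyunsaturated fatty acid synthesis, read 9.44, 10.03 and 9.28, a difference of 0.59, and its partner Fads1 differed by 0.31. Elovl5, the elongase of the same route, differed by 0.44. The reductases and dehydratases of the elongation cycle ran from Hsd17b12 at 0.28 and Hacd1 at 0.16, through Tecr at 0.06 and Hacd3 at 0.04, to Hacd2 at -0.02 and Hacd4 at -0.06.

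In triglyceride and phospholipid synthesis single enzymes stood out and the families did not. Of 12 triglyceride genes 7 were higher, 2 lower and 3 equal (median 0.08). Lpin1, a phosphatidate phosphatase, read 6.25, 7.52 and 6.48, a difference of 1.27, while Lpin2 differed by 0.05. The acyltransferase gene Agpat4 read 6.90, 7.33 and 7.60, a difference of 0.43, and its relative Agpat2 8.12, 7.84 and 7.61, a difference of -0.29. Of 23 phospholipid genes 10 were higher, 7 lower and 6 equal (median 0). Pcyt2, the committed enzyme of phosphatidylethanolamine synthesis, read 7.96, 8.54 and 7.82 and differed by 0.58, and Lpcat3, which places polyunsaturated chains in membranes, read 9.77, 10.25 and 9.74 and differed by 0.48. The other lysophosphatidylcholine acyltransferases went below 0, with Lpcat4 at -0.23 and Lpcat1 at -0.19. Sphingolipid genes (21 members, median 0) ran from -0.13 for the ceramide synthase gene Cers6 to 0.19 for the ceramidase gene Asah1.

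Of 10 genes that respond to fatty acids through PPAR receptors, 6 were higher, 3 lower and 1 equal (median 0.07, or 0.20 among members at or above the 75th percentile of level). Past the small limit were 3, all higher: Fabp4, Fabp5 and the thioesterase gene Acot2. The lipoprotein lipase inhibitor gene Angptl4 read 5.95, 5.87 and 5.61, a difference of -0.08. The lipid droplet coat gene Plin2 was at 11.13, 11.33 and 11.30, a difference of 0.20, and Cpt1a, which admits fatty acids to mitochondria, at 7.98, 7.78 and 6.39, a difference of -0.21. Cd36, the fatty acid receptor, was below the filter at 2.27 on all 3 arrays. Of 23 oxidation and carnitine genes 9 were higher, 3 lower and 11 equal (median 0) and none past the small limit. Lipid droplet genes (8 members) had a median of 0.05. Fabp4 and Fabp5 encode fatty acid binding proteins. Fabp4 read 5.25, 6.04 and 5.71, a difference of 0.79, and Fabp5 7.60, 7.95 and 7.38, a difference of 0.36.

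Acyl-CoA synthetases and thioesterases split evenly, with 5 of 12 higher, 5 lower and 2 equal. Acot2, a mitochondrial thioesterase gene, read 9.22, 9.68 and 11.37, a difference of 0.45, and Acot9 7.83, 7.44 and 7.42, a difference of -0.39. Of the coenzyme A synthesis genes, a list chosen after values were seen, 6 of 7 were higher and 1 equal (median 0.14). The pantothenate kinase genes led it: Pank3 read 9.07, 9.58 and 8.84, a difference of 0.51, and Pank2 differed by 0.25. Pank1, at 0.35, rests on probe sets that disagree, 1 of them at 0.00 and the other at 0.71. Among retinol and retinal enzymes, 13 past the filter with a median of 0, Rdh11 read 7.86, 9.05 and 8.47, a difference of 1.19. The alcohol dehydrogenase gene Adh7 was at 6.87, 7.47 and 9.59, a difference of 0.60.

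**Figure D3:**
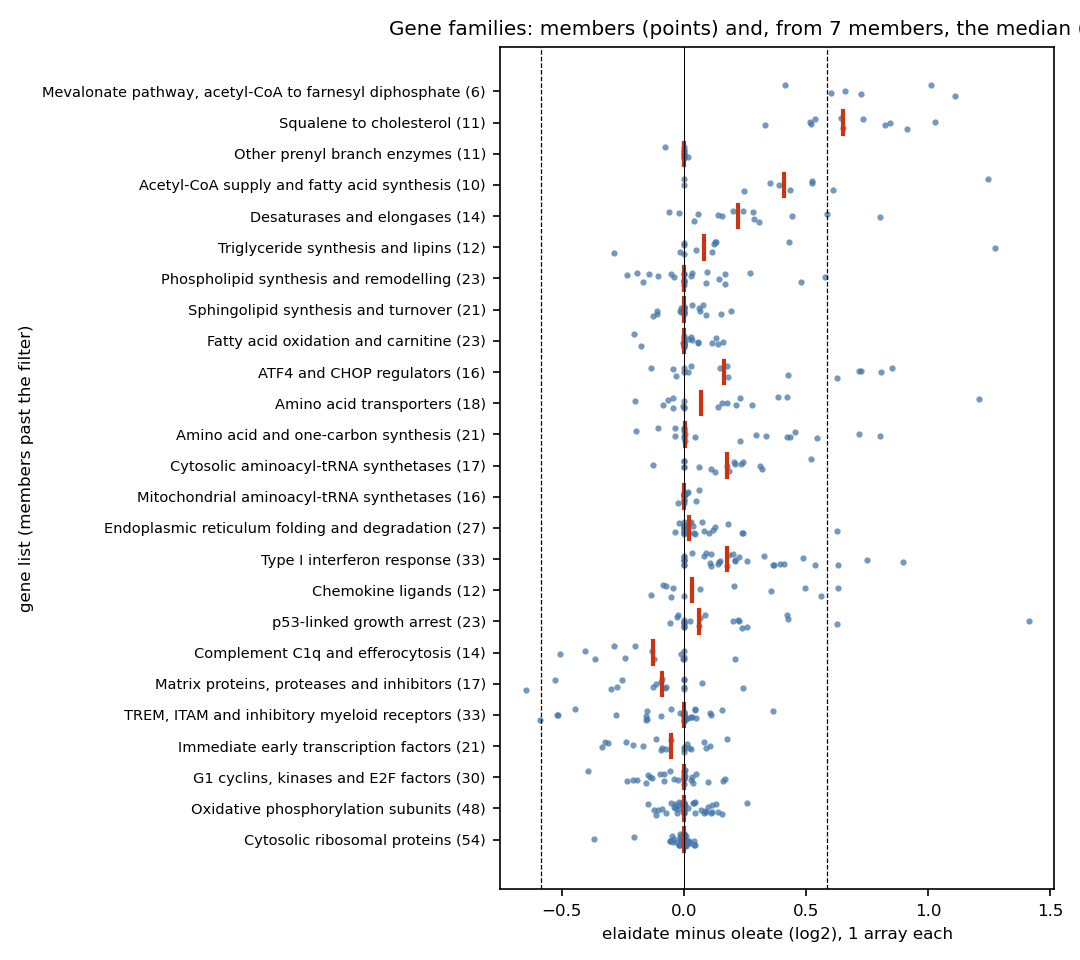
Elaidate minus oleate (log2, x axis) for the members past the filter of 25 gene lists (y axis, number of members in brackets), 1 point per gene, with a red bar at the median of lists with at least 7 members; dashed lines mark 1.5-fold. The cholesterol synthesis lists lie wholly above 0, and the C1q and efferocytosis list has a median of -0.13. The mitochondrial tRNA synthetases and prenyl branch enzymes sit at or near 0, most of them as ties.

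Regulators of the integrated stress response were higher on elaidate for 11 of 16 members, lower for 3 and equal for 2. Their median was 0.16, and 5 passed 1.5-fold upward. Among all genes 31.5% were higher, 24.3% lower and 0.723% at least 1.5-fold higher. Atf4 itself read 8.34, 9.07 and 9.95, a difference of 0.73. Nupr1, a stress-induced chromatin protein gene, read 7.58, 8.43 and 10.49, a difference of 0.85. Chac1, which degrades glutathione, read 5.13, 5.94 and 7.61, a difference of 0.81. Trib3, a pseudokinase gene that feeds back on ATF4, was at 6.03, 6.75 and 9.71, and Sesn2, a brake on mTORC1, at 6.65, 7.28 and 9.36, with differences of 0.72 and 0.63. In each of these 5 genes elaidate lay between oleate and palmitate. That order was not counted over all genes, so it cannot be called particular to these genes or to the families below. It also held for 18 of 41 DNA replication genes. The phosphatase subunit gene Ppp1r15a, another gene of this response, read 5.01, 5.04 and 8.12, a difference of 0.03, and Ddit4 5.22, 5.23 and 5.90, a difference of 0.02. The isomers were thus nearly level for both, with the palmitate array above them.

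Amino acid supply showed the same order for its leading genes. Of 18 transporters 9 were higher, 7 lower and 2 equal (median 0.07), beside 31.5% higher and 24.3% lower over all genes. Slc1a4, a carrier of small neutral amino acids, read 4.66, 5.87 and 7.95, a difference of 1.21. The glycine carrier gene Slc6a9 and the glutamine-type carrier gene Slc38a7 differed by 0.39 and 0.42. The cystine carrier gene Slc7a11 stood at 0.14 and its shared heavy chain Slc3a2 at -0.04. Of 21 amino acid and one-carbon synthesis genes 12 were higher, 4 lower and 5 equal (median 0.01). Cth, which makes cysteine, read 8.95, 9.76 and 11.66, a difference of 0.80, and the transaminase gene Gpt2 5.87, 6.59 and 7.88, a difference of 0.72. Asns, which makes asparagine, differed by 0.42, Mthfd2 of the mitochondrial folate cycle by 0.45 and Psat1 of serine synthesis by 0.34. Glutamine synthetase, Glul, was at -0.20. The mitochondrial enzyme gene Pck2, from a list chosen after values were seen, read 7.23, 7.90 and 9.08, a difference of 0.67.

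Enzymes that load amino acids onto tRNA were described by compartment. Of 17 cytosolic synthetases 12 were higher, 1 lower and 4 equal (median 0.17), beside 31.5% higher and 24.3% lower over all genes. Elaidate lay between oleate and palmitate for all 12, an order not counted over all genes. Cars read 7.73, 8.26 and 9.36, a difference of 0.52, Tars 9.56, 9.88 and 10.56, a difference of 0.32, and Nars 9.72, 10.03 and 10.95, a difference of 0.31. These were the highest of the group, and Vars, at -0.13, was the only one below 0. Of 16 mitochondrial synthetases 11 were equal, 4 higher and 1 lower, with a median of 0 and values from -0.02 (Mars2) to 0.06 (Nars2). Folding and degradation genes of the endoplasmic reticulum were higher for 16 of 27 but with a median of only 0.02. Dnajb9, a co-chaperone gene, read 7.30, 7.93 and 9.30, a difference of 0.63, while the chaperone gene Hspa5 differed by 0.13, Xbp1 by 0.02 and Herpud1 by 0.04.

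**Figure D4:**
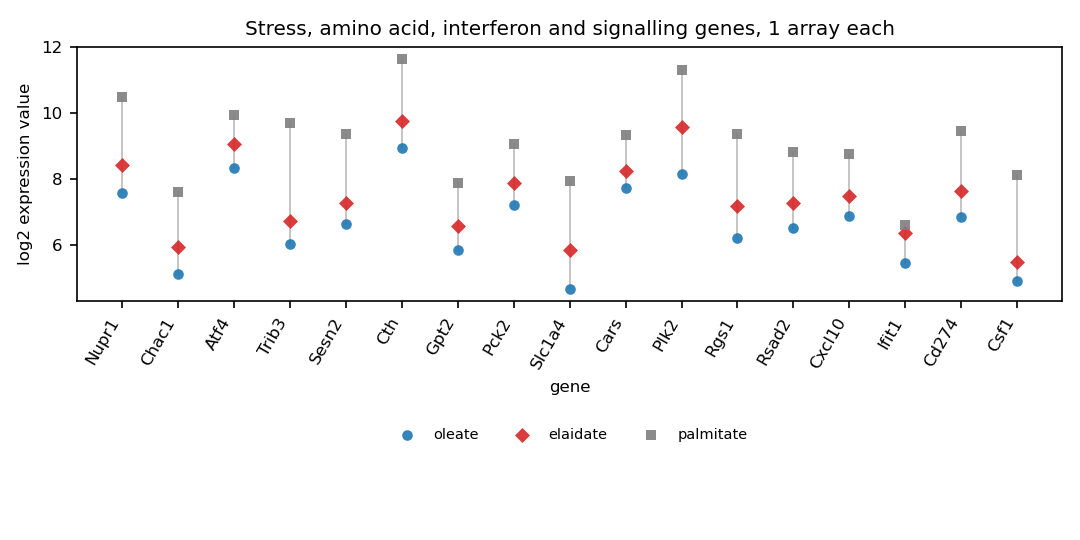
Log2 expression values (y axis) of stress, amino acid, interferon and signalling genes (x axis) on the oleate (blue circle), elaidate (red diamond) and palmitate (grey square) arrays, 1 array each. For every gene shown the elaidate value is above the oleate value and below the palmitate value, as for Plk2 at 8.16, 9.57 and 11.32.

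The type I interferon list, with 33 of 35 measured members past the filter, had 26 higher on elaidate, 0 lower and 7 equal. Its median was 0.18 and 10 members passed the small limit, all upward. Of all genes 31.5% were higher, 24.3% lower and 2.67% higher past the small limit. Ifit1, which binds foreign RNA, read 5.48, 6.38 and 6.60, a difference of 0.90. Rsad2, the antiviral enzyme viperin, was at 6.53, 7.27 and 8.82, a difference of 0.75, and the chemokine gene Cxcl10 at 6.88, 7.51 and 8.76, a difference of 0.63. Rtp4 (0.53), Isg20 (0.49) and Cmpk2 (0.41) followed. Elaidate thus lay nearer to palmitate than to oleate for Ifit1, and nearer to oleate for Rsad2 and Cxcl10. The regulators were smaller: the RNA sensor genes Ddx58 and Ifih1 differed by 0.18 each, Stat2 by 0.14 and Irf9 by 0.11, and Irf7 was equal at 7.34 on all 3 arrays. In the PYHIN family of DNA sensors, chosen after values were seen, 5 of 5 past the filter were higher, with Ifi202b at 0.63, Ifi203 at 0.55 and Aim2 at 0.27. Guanylate-binding proteins, also chosen so, were higher for 4 of 5, with Gbp9 at 0.50.

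Inflammatory genes were mixed in direction. Of 12 chemokines, Cxcl10 of the interferon list included, 6 were higher, 5 lower and 1 equal (median 0.03, or 0.21 among members at or above the 75th percentile of level). Past the small limit, 4 were higher and 0 lower. Ccl4 read 8.31, 8.87 and 9.56, a difference of 0.56, Ccl5 7.24, 7.74 and 8.64, a difference of 0.49, and Ccl3 11.97, 12.32 and 12.76, a difference of 0.35. The neutrophil chemokine gene Cxcl2 read 7.06, 6.98 and 9.96, a difference of -0.09, so it was high on palmitate alone. Tnf stood at 0.00 and Il1b at -0.18 among 13 cytokine genes with a median of 0. Csf1, the macrophage growth factor, read 4.91, 5.50 and 8.14, a difference of 0.58. NF-kB subunits and feedback genes (24 members) and Toll-like receptors with their adaptors (22) each had a median of 0, led by the ubiquitin ligase gene Birc3 at 0.40 and the LPS co-receptor gene Ly96 at 0.35. The chemoattractant receptor list (18) had a median of 0, with Ccrl2 at 5.18, 5.79 and 7.61, a difference of 0.60.

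Several signalling genes stood above their families. Plk2, a stress-responsive polo-like kinase, read 8.16, 9.57 and 11.32, and its difference of 1.41 was the highest among named genes. Its relatives Plk3 and Plk4 differed by 0.02 each, and Plk1, the mitotic member, was at 9.77, 9.54 and 9.27, a difference of -0.23. Rgs1 and Rgs2, which shut off G protein signals, read 6.22, 7.18 and 9.37, and 7.96, 8.57 and 9.27, with differences of 0.95 and 0.61, and Rgs18 differed by 0.34. The remaining 17 members of that list of 20 ran from -0.20 (Gpsm3) to 0.10 (Gnai3). Among the p53-linked genes (23 members, median 0.06) Gadd45a and Gadd45b differed by 0.43 and 0.42, and the cell cycle inhibitor gene Cdkn1a by -0.02. The checkpoint ligand gene Cd274, from a list chosen after values were seen, read 6.85, 7.66 and 9.47, a difference of 0.81. Tuba1a, from a list chosen likewise, read 8.18, 8.96 and 7.93, a difference of 0.78, while the beta tubulin genes Tubb5 and Tubb4b were at -0.19 and -0.22. Firre, a long noncoding RNA gene in none of the lists, read 4.64, 5.53 and 5.34, a difference of 0.90.

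Lists with a median below 0 were few. The complement C1q and efferocytosis list, genes for the tagging and engulfing of dying cells, had 10 of 14 members past the filter lower, 1 higher and 3 equal (median -0.13). Over its 23 measured members, without the filter, the median was 0. Among all genes past the filter 24.3% were lower and 31.5% higher. The 3 chains of C1q were all lower: C1qa read 8.85, 8.34 and 7.37, a difference of -0.51, C1qc 8.50, 8.09 and 7.24, a difference of -0.40, and C1qb 10.33, 10.13 and 9.66, a difference of -0.20. Mertk, a receptor for dying cells, read 7.67, 7.30 and 5.57, a difference of -0.36, and the endocytic receptor genes Lrp1 and Stab1 differed by -0.29 and -0.24. Anxa1, at 0.21, was the only member above 0. For all of the named lower genes of this list, palmitate was lower still. Of the 19 macrophage markers, which share Mertk and the C1q genes with this list, 12 were lower, 3 higher and 4 equal (median -0.04). Adgre1, an adhesion receptor gene used as a macrophage marker, stood at -0.34, Lyz2 at -0.19 and Csf1r at -0.12. In RNA from a whole culture, fewer cells of a type and less RNA per cell cannot be told apart. The part of those markers in the result was not tested.

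Single scavenger and immune receptor genes were lower, while their families were mixed in direction. Marco, a scavenger receptor gene, read 7.64, 6.94 and 6.50, a difference of -0.69, while Msr1 was at -0.02 and Scarb1 at 0.30. Of the 13 scavenger and carrier genes 5 were higher, 5 lower and 3 equal (median 0). Past the small limit 2 were higher and 1 lower, and the highest difference was 0.79. Of 33 TREM, ITAM and inhibitory receptor genes 12 were higher, 13 lower and 8 equal (median 0). Its lower end held Dok3, an inhibitory adaptor gene, at 8.03, 7.44 and 6.68, a difference of -0.59, and the ITAM receptor gene Nfam1, at 9.38, 8.86 and 7.43, a difference of -0.52. Trem1, an amplifier of inflammation, read 7.06, 6.55 and 4.57, a difference of -0.51, and the checkpoint gene Vsir 7.25, 6.80 and 4.87, a difference of -0.45. Each of the 4 was lowest on palmitate. Lilrb4a, an inhibitory receptor gene, went the other way, at 0.36. Of the growth factor receptors, Csf2rb2 and Csf2rb differed by -0.37 and -0.33. The median of their list of 7, colony stimulating factor signals, was -0.09, and its highest difference was 0.58.

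Matrix genes and myeloid transcription factors followed. Of 17 matrix protein and protease genes 11 were lower, 2 higher and 4 equal (median -0.09). The shares over all genes were 24.3% lower and 31.5% higher. Tgfbi, a secreted adhesion protein, read 9.74, 9.09 and 7.74, a difference of -0.65. The collagenase gene Mmp13 read 6.81, 6.29 and 6.82, a difference of -0.53, and here palmitate matched oleate and elaidate alone was low. Irf8, a factor of monocyte identity, read 9.34, 8.84 and 7.95, a difference of -0.50, and Maf 6.34, 5.90 and 4.96, a difference of -0.45. The list of interferon regulatory factors and PU.1 partners, 28 members, split into 11 higher, 11 lower and 6 equal, and Spi1, which encodes PU.1, was at -0.04. Nfatc2, from a list chosen after values were seen, was at 7.85, 7.41 and 6.32, a difference of -0.45. Alox5, which starts leukotriene synthesis, read 7.22, 6.83 and 6.12, a difference of -0.39, within a list of 17 with a median of 0.

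Growth signalling lists had medians at or just below 0. Of 21 immediate early genes 11 were lower, 8 higher and 2 equal (median -0.05). Fos read 5.73, 5.41 and 4.44, a difference of -0.31, Fosl2 differed by -0.32 and the RNA decay factor gene Zfp36l2 by -0.33. Among phosphatases and Sprouty-type feedback genes (22 members, median 0) the ERK phosphatase gene Dusp6 read 9.15, 8.84 and 7.39, a difference of -0.30. Of 30 G1 cyclin, kinase and E2F genes 15 were lower, 9 higher and 6 equal (median -0.0001). Past the small limit 1 was lower and 0 higher. Over all genes 24.3% were lower and 31.5% higher. Ccnd3 (7.89, 7.49 and 6.00) differed by -0.39, E2f2 by -0.23, Myc by -0.21 and Ccnd1 by -0.19. Trib1, a pseudokinase gene that guides a ubiquitin ligase to its substrates, read 6.84, 6.13 and 5.46, and its difference of -0.71 was opposite in sign to that of its relative Trib3, at 0.72. Soga1 was at 7.06, 6.47 and 5.64, a difference of -0.59. The remaining genes of the lowest 15 were Mettl23 (-0.50), Tifab (-0.48), the histidine-degrading Hal (-0.48) and Tor4a (-0.48), none of them in a list.

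**Figure D5:**
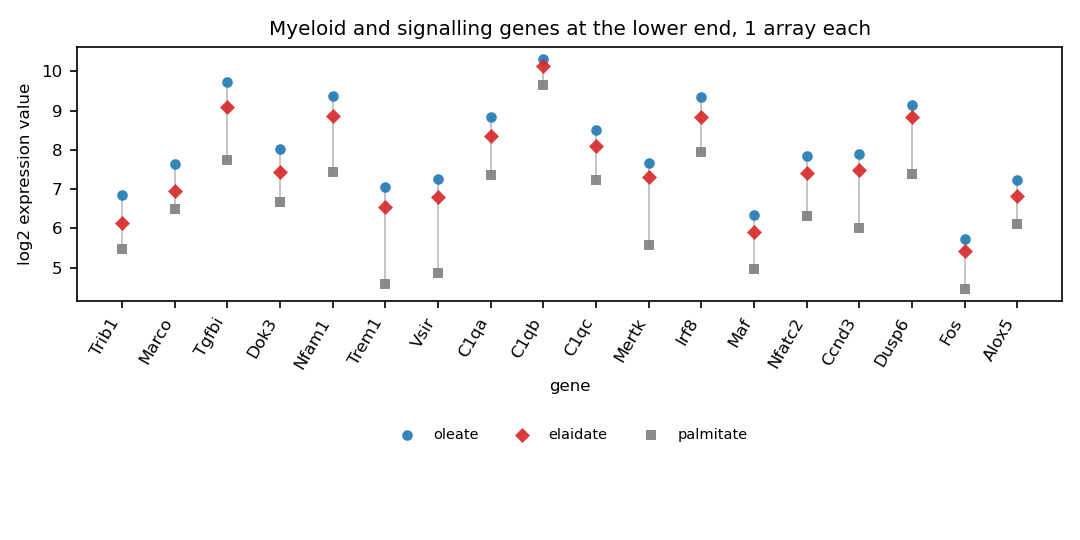
Log2 expression values (y axis) of 18 genes lower on elaidate than on oleate (x axis), on the oleate (blue circle), elaidate (red diamond) and palmitate (grey square) arrays, 1 array each. In each of them the order is oleate, elaidate, palmitate from top to bottom, with the widest span at Trem1, from 7.06 to 4.57.

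Large housekeeping families were level between the isomers. Oxidative phosphorylation subunits (48 members), mitochondrial ribosomal proteins (58) and cytosolic ribosomal proteins (54) each had a median of 0 and none at 1.5-fold. Their members furthest from 0 were Ndufb3 at 0.26, Mrps16 at -0.34 and Rpl14 at -0.37. DNA replication genes (41) and mitosis genes (34) had medians of 0 with none past the small limit, the lowest being Mcm7 at -0.27 and Plk1 at -0.23. Cytosolic heat shock proteins (17) had a median of 0.04, led by Dnajb6 at 0.22. NRF2 antioxidant genes (30) were higher for 10, lower for 14 and equal for 6; apart from Me1 at 0.52, which the fatty acid synthesis list shares, they ran from -0.24 for Hmox1 to 0.26 for Mgst1. In glycolysis and HIF target genes (33, median 0.00) the opposite ends were Pfkfb4 at 0.52 and Hk2 at -0.33. Lysosome and autophagy genes (35) had a median of 0, led by Gla at 0.37, inflammasome genes (17) a median of 0, led by Il18 at 0.35, and BCL2 family genes (14) a median of 0, led by Bnip3l at 0.30. Fc receptor and integrin genes (19) had a median of 0.00, with Itgb5 at -0.35 and Itgal at -0.34 lowest.

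A few genes carry a check within the array. Of the 986 genes past the filter with several probe sets, 13 passed the small limit. In 3 of them the probe sets held identical values and give no check. In 9 the probe sets differed and all pointed in the direction of the mean, and the exception was Pank1. The carboxylase gene Acaca is an example of the 9, with probe sets at 0.34 and 0.53. Most named genes have 1 probe set and no such check.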

How the data were processed

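RNA of RAW264.7 cells given oleate, elaidate or palmitate was labelled with a whole-transcript assay and hybridised to Affymetrix arrays, 1 per fatty acid, per the labels' protocols; groups follow the labelled fatty acid. Each deposited number is a log2 value of a probe set from RMA, per the submitters' processing notes, without a version being given in the sources used here. RMA makes array distributions alike, so a shift shared by most genes would not be seen. Arrays have no read depth, and their number limits precision.

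Of 35556 probe sets, 21218 had 1 symbol in the platform annotation, 1881 several and 12457 none there; only the first kind was used, averaged per gene (1386 of 18820 genes had several). All columns of values were used. Array medians were 3.57 for oleate and 3.58 for elaidate.

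No test was made: differences were counted at log2 limits of 0.32, 0.58 (1.5-fold) and 1, and lists were described by counts and, from 7 members past the filter, by medians. Named genes are the 15 highest and 15 lowest (leaving out predicted, microRNA, small nucleolar and receptor genes of smell), list members at 1.5-fold or else the 2 to 4 furthest from 0, members of named pathways, and Angptl4, Plin2, Cd36 and Cpt1a. Members and lists were chosen with earlier results of these data known; some further examples were added after their values were seen. Of 1504 list entries, 1376 were measured and the rest were not analysed here. Promoter windows are from RefSeq (GRCm38.p6), matched by symbol.

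Alternatives were other filters and limits, centring, cyclic loess (limma 3.58.1, R 4.3.3), the brightest probe set and list means. Counting was tested on simulated data with Python 3.11.15, numpy 2.4.6 and pandas 2.3.3; figures used matplotlib 3.10.9.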

Additional observations from a re-analysis of the deposited data

How the results depend on the processing

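The 1.5-fold counts of 68 higher and 6 lower genes became 42 and 3 among genes at or above the 75th percentile of level, 251 and 84 at a log2 limit of 0.32, and 10 and 0 at 2-fold; no filter, a filter on the isomers' arrays alone, centring, cyclic loess and the brightest probe set kept them within 1.5 times. All 33 genes followed kept their direction under cyclic loess and moved by less than 0.13. Centring shifts every difference by the same 0.012, and each of these genes has 1 probe set. Centring and the brightest probe set therefore could not change them and give no check. Of 448 pairs of list median and alternative, 424 stayed within 0.1 log2, 24 moved and 0 reversed. A reversal was counted only for medians at least 0.1 from 0. Changes of sign in smaller medians counted as staying, as for amino acid synthesis, from 0.006 to -0.006 under centring. The shift from centring is smaller than 0.1, so the pairs with centring could not move. At the 75th percentile the medians were 0.48 for LXR targets, 0.20 for PPAR genes, 0.30 for ATF4 regulators, 0.23 for amino acid synthesis, 0.21 for chemokines, 0.13 for prostaglandin genes, -0.22 for colony stimulating factor signals, 0.24 for p53-linked genes, 0.17 for retinol genes and 0.38 for coenzyme A synthesis. Means in place of medians were 0.16 for LXR targets, 0.28 for ATF4 regulators, 0.19 for amino acid synthesis, 0.16 for chemokines, 0.18 for p53-linked genes and 0.13 for retinol genes. Without equal genes, an alternative chosen after seeing the data, medians were 0.16 for sterol sensing, 0.27 for LXR targets, 0.26 for amino acid synthesis, 0.12 for NF-kB genes, 0.15 for inflammasome genes and 0.21 for p53-linked genes. Without a filter, fatty acid synthesis stood at 0.30 and complement C1q and efferocytosis at 0.00. Filters change which genes count; otherwise the cause was not tested. No paired analysis was possible because each fatty acid has 1 array and no test was made. Without replicate arrays, no size of difference can be set against culture or array error.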

Other observations

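Probe sets without a gene symbol in the annotation used here spread more widely than named genes, whose standard deviation was 0.13. Of 3764 such probe sets at or above the same level limit, 188 (4.99%) were at least 1.5-fold higher on elaidate and 221 (5.87%) at least 1.5-fold lower, with a standard deviation of 0.39 and a range from -2.76 to 2.45. Equal values were found for 22.6% of them. The 854 probe sets with several symbols had 2 at least 1.5-fold higher and 2 at least 1.5-fold lower, with a standard deviation of 0.11.

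In Mmp13 and Fdps the oleate and palmitate levels nearly coincide. Elaidate stands apart from both, lower for Mmp13 (-0.53) and higher for Fdps (0.60). Other sterol genes came near this, such as Insig1 at 9.74, 10.78 and 9.80 and Lss at 8.84, 9.86 and 8.96. Over the 9410 genes elaidate was the highest of the 3 arrays for 14.8% and the lowest for 7.66%.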
